A study of Homo sapiens with 24 samples.

Results

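FAS and ACTA2 are 2 protein-coding genes that lie side by side on chromosome 10 in opposite orientation, and they were followed here with every array probe whose RefSeq accession maps to either of them. The pair was chosen with its differences from the control siRNA in these same arrays known, where probes of both genes were brighter in the knockdowns. Those differences are therefore described without a test. They are 2 of 20992 RefSeq genes with a probe on the array used at 24 h and of 22439 at 48 h. The rule gave 4 probes, 3 for FAS and 1 for ACTA2, of 50599 on the earlier array and the same 4 of 58201 on the later one. All 4 exceeded the background threshold at both time points, which 44849 and 45200 probes did in all.

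The cells were LNCaP, an established prostate cancer cell line with androgen receptor signalling. They were transfected by electroporation with 1 of 3 siRNAs: a scramble control, si-A1 directed against the long non-coding RNA TAPIR-1, or si-A2 directed against the long non-coding RNA TAPIR-2. RNA was taken 24 h or 48 h later from 4 biological replicates per siRNA and hybridised to one-colour Agilent arrays, version 2 of the design at 24 h and version 3 at 48 h. Si-A2 replicate 2 at 48 h was left out because the array was dim, which leaves 12 arrays at 24 h and 11 at 48 h. Each TAPIR transcript was targeted in these arrays by 1 siRNA, so an effect of the target and an effect of that siRNA sequence cannot be told apart.

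Levels are log2 processed intensities after quantile normalization. Across the arrays of a time point the median processed intensity ranged from 24.4 to 57.2 at 24 h and from 20.4 to 32.2 at 48 h, against 13.9 on the dim array. At 24 h 58.5% to 71.7% of spots were well above background, at 48 h 60.3% to 66.5%, and no spot of the 4 probes was saturated. At each time point, replicates 1 and 2 shared one slide and replicates 3 and 4 the other, so 2 slides were used per time. A probe with an accession of TAPIR-2 (A_19_P00318461) had a level at 24 h of 5.04 ± 0.20 (SD, n = 4) in the scramble arrays, 4.64 ± 0.32 (SD, n = 4) in the si-A1 arrays and 4.06 ± 0.74 (SD, n = 4) in the si-A2 arrays. At 48 h the same probe was at 4.64 ± 0.58 (SD, n = 4), 4.82 ± 0.81 (SD, n = 4) and 4.68 ± 0.90 (SD, n = 3) in the same order, so it did not mark the libraries labelled si-A2 at that time. A second probe with that accession on the 48 h array was well above background on 0 of 11 arrays, and TAPIR-1 had no matched probe. Of the 10 luminal prostate markers looked at, all 10 exceeded the threshold at 24 h and at 48 h.

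FAS encodes the CD95 death receptor of the tumour necrosis factor receptor family. When its ligand FASLG binds, FAS recruits the adaptor FADD and the initiator caspase CASP8 and starts apoptosis, and its gene is a known transcriptional target of p53. ACTA2 encodes smooth muscle alpha-actin, a contractile actin that marks smooth muscle cells and myofibroblasts and is usually driven by serum response factor through CArG boxes; it has also been described as responsive to p53. In epithelial tumour cells it is normally a minor actin beside ACTB and ACTG1.

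In RefSeq (GRCh38.p14) ACTA2 spans chr10:88935074-88991337 on the minus strand and FAS spans chr10:88964050-89017059 on the plus strand, so the gene bodies share 27288 bases. The promoter table holds 3 starts of FAS transcripts, at positions 88990798, 88990914 and 88991431, and 2 of ACTA2 transcripts, at 88991337 and 88952773. The distal ACTA2 start lies 94 bases from the last FAS start and points away from it, while the proximal ACTA2 start lies 38564 bases further along the gene. FAS-AS1, an antisense RNA, spans chr10:88991422-88992975 and so reaches the last FAS start. The probe sequences and their positions were not analysed here, so which of these transcripts each probe reads is not known.

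The 250 bases before 3 of these starts are shown as the sequence upstream of transcripts of the pair. Letters that match a p53 half-site or a CArG box are in capitals, and a mismatch within a box is in lower case. The FAS start called earliest is the first of those listed, at 88990798. The FAS gene body begins before it, at 88964050, and no window before that position was searched. Both strands were searched, for the p53 half-site of 10 bases without mismatch, for 2 half-sites in a row with at most 2 mismatches, and for the CArG box with at most 1 mismatch.
FAS, earliest start, chr10:88990548-88990797, plus strand: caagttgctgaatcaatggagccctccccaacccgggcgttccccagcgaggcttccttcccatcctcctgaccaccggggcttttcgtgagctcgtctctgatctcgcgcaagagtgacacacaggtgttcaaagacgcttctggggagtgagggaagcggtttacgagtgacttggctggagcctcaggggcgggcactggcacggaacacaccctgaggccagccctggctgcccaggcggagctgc
ACTA2, distal start, chr10:88991338-88991587, minus strand: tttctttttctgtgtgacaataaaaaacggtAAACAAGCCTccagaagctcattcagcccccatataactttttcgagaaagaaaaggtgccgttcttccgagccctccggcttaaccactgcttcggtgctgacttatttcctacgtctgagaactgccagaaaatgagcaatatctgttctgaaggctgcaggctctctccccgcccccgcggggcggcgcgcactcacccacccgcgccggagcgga
ACTA2, proximal start, chr10:88952774-88953023, minus strand: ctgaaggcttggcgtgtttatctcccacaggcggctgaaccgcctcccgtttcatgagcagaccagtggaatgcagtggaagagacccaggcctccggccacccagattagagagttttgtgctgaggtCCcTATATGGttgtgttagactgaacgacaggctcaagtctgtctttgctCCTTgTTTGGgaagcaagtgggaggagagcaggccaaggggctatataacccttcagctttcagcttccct

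The window before the earliest FAS start held none of these motifs. The window before the distal ACTA2 start held 1 p53 half-site, 210 to 219 bases before the start, and such a half-site was present in 5.58% of the 34943 promoter windows of this length in RefSeq. The window before the proximal ACTA2 start held CArG-like boxes at 112 to 121 and at 62 to 71 bases before the start, each with 1 mismatch, and no box without mismatch. At least 1 CArG box with at most 1 mismatch was present in 16.8% of all windows, and 1 without mismatch in 1.16%. The window before the last FAS start, which runs across the distal ACTA2 start, held 1 full p53 site with 2 mismatches at chr10:88991309-88991328, and 0.561% of all windows held such a site.
p53 site in FAS, plus strand, matching letters in capitals: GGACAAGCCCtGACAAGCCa
A match is a description of the letters in the reference sequence and no measurement of binding.

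At 24 h every FAS probe was lowest after scramble, intermediate after si-A1 and highest after si-A2. On the brightest FAS probe at that time, A_33_P3381127, the 4 scramble arrays were at 6.09, 5.85, 5.76 and 6.15, the si-A1 arrays at 6.86, 6.78, 6.89 and 6.82 and the si-A2 arrays at 7.06, 7.38, 7.22 and 7.43, in the order of the replicates. The 3 groups did not overlap. On A_23_P63896 they were at 5.76, 5.83, 5.85 and 6.03 after scramble, at 6.50, 6.51, 6.66 and 6.57 after si-A1 and at 6.69, 7.12, 6.90 and 7.14 after si-A2, again with no overlap. On A_33_P3332112, the dimmest, they were at 4.85, 5.40, 5.70 and 5.39, at 6.19, 6.14, 6.32 and 5.95 and at 6.62, 6.72, 6.60 and 6.71. The 3 FAS probes gave the same order of groups, with a gap between each group and the next.

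The excess of FAS over scramble at 24 h was 0.88 ± 0.14 (log2 difference ± SE, 1.84-fold) with si-A1 and 1.31 ± 0.14 (2.48-fold) with si-A2 on A_33_P3381127. It was 0.69 ± 0.13 and 1.1 ± 0.13 on A_23_P63896, and 0.81 ± 0.17 and 1.33 ± 0.17 on A_33_P3332112. All 3 FAS probes lay above scramble without overlap after either siRNA, as did 3.92% of all probes after si-A1 and 3.22% after si-A2. These are the values the pair was proposed on and nothing is read from them against that background. A call at an adjusted p below 0.01 and a log2 difference of at least 0.5 in the upward direction was made for 0.0803% of all probes with si-A1 and 0.0892% with si-A2.

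**Figure D1:**
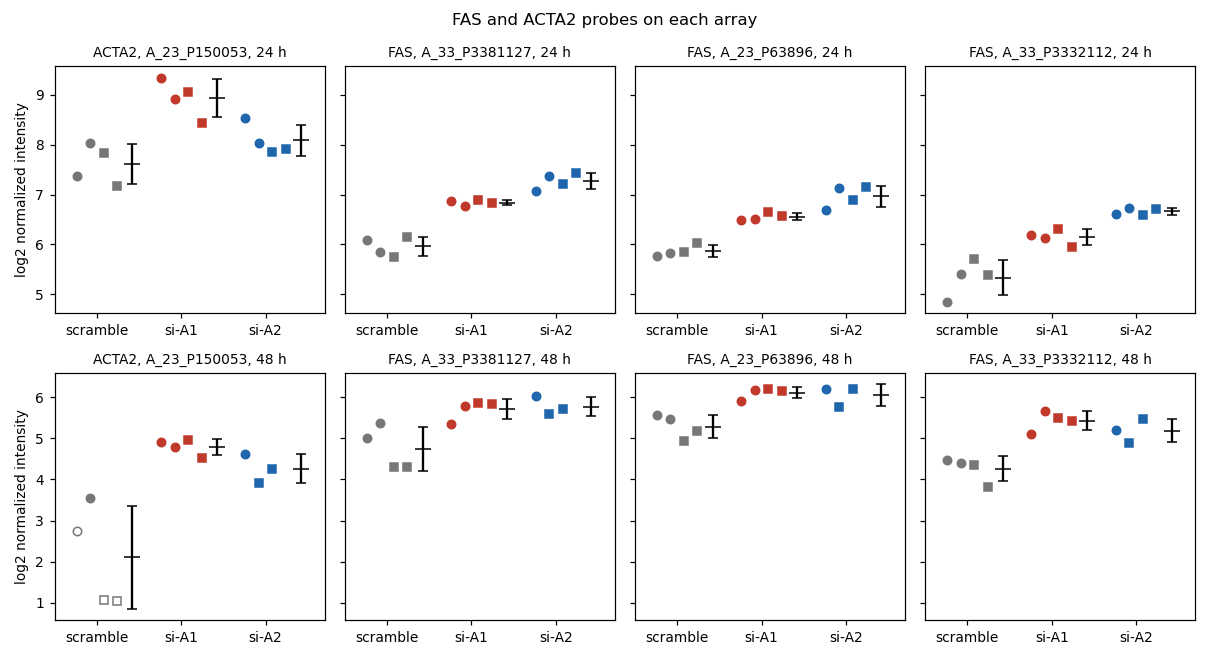
Normalized log2 intensity of the ACTA2 probe and the 3 FAS probes on each array, at 24 h (upper row) and 48 h (lower row). Each symbol is 1 array (circles slide 1, squares slide 2, open symbols not well above background) and the bars give the mean ± SD of the group. At 24 h the FAS probes climb from scramble to si-A1 to si-A2, while ACTA2 is highest after si-A1, with a mean of 8.94.

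The array at 24 h carried A_23_P63896 in 10 copies, which shows the error of a single spot. The SD between the copies on an array lay between 0.037 and 0.273 with a median of 0.098 on the log2 scale. Over all copies, the spots lay between 5.22 and 6.11 after scramble, between 6.30 and 6.80 after si-A1 and between 6.41 and 7.23 after si-A2. The single spots thus separated scramble from both knockdowns, whereas those of si-A1 and si-A2 overlapped although the array averages did not. Copies of a probe on 1 array share its RNA and are not replicates of a condition.

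ACTA2 showed another order at 24 h, with its highest levels after si-A1. Its only probe, A_23_P150053, was at 7.38, 8.04, 7.84 and 7.18 after scramble, at 9.35, 8.91, 9.05 and 8.44 after si-A1 and at 8.54, 8.03, 7.86 and 7.92 after si-A2. The si-A1 arrays all lay above the scramble arrays, and the si-A2 arrays overlapped both other groups. The log2 difference from scramble was 1.33 ± 0.23 (2.51-fold) with si-A1 and 0.48 ± 0.23 (1.39-fold) with si-A2. Within a slide, the si-A1 value was 1.42 on slide 1 and 1.24 on slide 2, and the si-A2 value 0.58 and 0.38.

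At 48 h ACTA2 was close to background after scramble and measurable after both knockdowns. Its level was 2.76, 3.55, 1.06 and 1.06 after scramble, where it was well above background on 1 of 4 arrays (replicate 2). It was 4.91, 4.78, 4.95 and 4.53 after si-A1 and 4.61, 3.92 and 4.26 after si-A2 in replicates 1, 3 and 4, well above background on all 7. The knockdown arrays did not overlap the scramble arrays. The log2 difference was 2.68 ± 0.39 with si-A1 and 2.32 ± 0.42 with si-A2, and its size rests on scramble values near the floor. It came to 1.69 and 1.46 within slide 1, 3.68 and 3.03 within slide 2, and 0.45 and 0.32 after normexp background correction with an offset of 50, which compresses dim signals.

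FAS remained brighter than in the control at 48 h, with no visible order between the knockdowns. On the brightest FAS probe at that time, A_23_P63896, the level was 5.56, 5.47, 4.94 and 5.17 after scramble, 5.91, 6.17, 6.19 and 6.14 after si-A1 and 6.20, 5.76 and 6.20 after si-A2. Neither knockdown overlapped scramble. The log2 difference was 0.82 ± 0.15 with si-A1 and 0.80 ± 0.17 with si-A2. The si-A1 value was 0.53 within slide 1 and 1.11 within slide 2. On each FAS probe the difference from scramble exceeded that of 24 h with si-A1 and fell short of it with si-A2. Neither shift passed the threshold in the interaction term given below.

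The other FAS probes differed from scramble by 1.16 ± 0.19 and 0.94 ± 0.21 (A_33_P3332112) and by 0.95 ± 0.23 and 1.08 ± 0.25 (A_33_P3381127) at 48 h in the order si-A1, si-A2. On A_33_P3381127 the si-A1 array of replicate 1, at 5.34, lay below the highest scramble array, at 5.37, so that 2 of 3 FAS probes were without overlap after si-A1 and 3 of 3 after si-A2. The shares of all probes above scramble without overlap were 6.74% and 4.02%, and 2.13% and 0.0686% of all probes were called upward. On the dim array, in a normalization with the other 11, the FAS probes A_23_P63896, A_33_P3332112 and A_33_P3381127 were at 5.75, 3.82 and 4.3 and ACTA2 was at 2.80, not well above background.

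**Figure D2:**
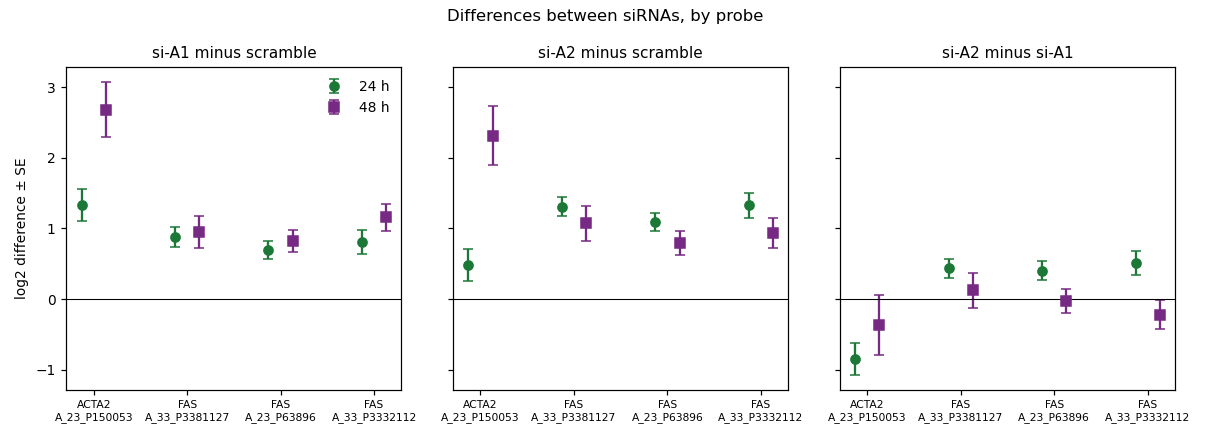
Log2 differences between siRNAs for the ACTA2 probe and the 3 FAS probes at 24 h (circles) and 48 h (squares), with bars of 1 SE from the linear model. The differences from scramble are descriptions, and in the right panel ACTA2 (-0.85) and the FAS probes (0.40 to 0.51) lie on opposite sides of 0 at 24 h.

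The comparison of the knockdowns with each other was taken as not used in choosing the genes, which is not known for certain. It was tested with limma and Benjamini-Hochberg adjustment over all probes above the threshold. It rests on the same knockdown arrays, so its p-values may not be free of that choice. At 24 h ACTA2 was less bright in the si-A2 than in the si-A1 arrays (log2 difference -0.85, 95% interval -1.35 to -0.35), with an unadjusted p of 0.0032 in limma and an adjusted p of 0.114. FAS was higher after si-A2 by 0.43 (95% interval 0.13 to 0.74, adjusted p = 0.202 in limma) on A_33_P3381127, by 0.40 (0.12 to 0.69, adjusted p = 0.210) on A_23_P63896 and by 0.51 (0.13 to 0.89, adjusted p = 0.234) on A_33_P3332112. None of the 4 probes passed the adjusted threshold, although all 4 had an unadjusted p below 0.05 in limma, as 11.4% of all probes did. Of all probes, 0.366% were called in this comparison. The si-A2 arrays lay above the si-A1 arrays without overlap on 3 of 3 FAS probes, as did 5.61% of all probes.

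At 48 h the difference between the knockdowns was not past the threshold on any probe. It was -0.37 for ACTA2 (95% interval -1.33 to 0.59, adjusted p = 0.718 in limma) and -0.02, -0.22 and 0.12 for the FAS probes A_23_P63896, A_33_P3332112 and A_33_P3381127, with adjusted p between 0.648 and 0.963. At an unadjusted p of 0.05 none of the 4 was below, and 1.45% of all probes were called. The 95% intervals of the FAS probes ran from -0.40 to 0.35, from -0.69 to 0.25 and from -0.44 to 0.68. Each overlapped the interval of the same probe at 24 h. The change of this difference between the time points was not tested.

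Because the members lie on the same array, their difference within an array is free of the scaling of that array. FAS minus ACTA2, on the log2 scale, averaged -2.10 ± 0.36 (SD, n = 4) in the si-A1 and -0.81 ± 0.45 (SD, n = 4) in the si-A2 arrays at 24 h on A_33_P3381127. This difference of 1.28 was larger than the spread between replicates, with no overlap. The exact two-sided permutation test gave p = 0.0286, the smallest that 4 against 4 arrays allow, and the other FAS probes gave differences of 1.26 and 1.36 with the same p. At 48 h the differences were 0.29 to 0.60, with exact permutation p between 0.0571 and 0.314. This comparison was chosen after the values were seen, and over its 6 tests the Benjamini-Hochberg adjusted exact p at 24 h is 0.0571. The scale of one probe cannot be set against that of another, so the sign of FAS minus ACTA2 has no meaning of its own, while its change between groups does.

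**Figure D3:**
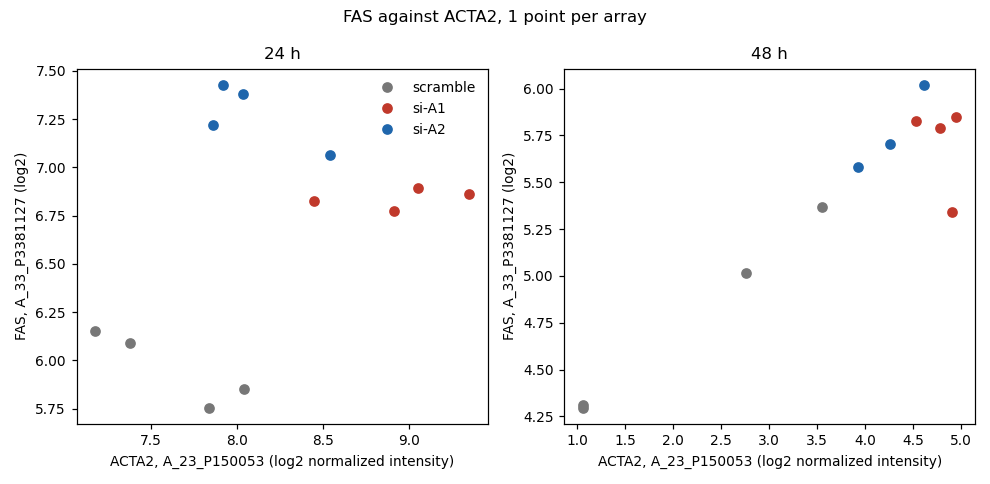
FAS (A_33_P3381127) against ACTA2 (A_23_P150053), both as normalized log2 intensity, 1 point per array, at 24 h and 48 h. At 24 h the si-A1 arrays lie below the si-A2 arrays and, apart from 1 si-A2 array at 8.54, to their right, and at 48 h the arrays of both knockdowns lie together and above the scramble arrays for ACTA2, while for FAS 1 si-A1 array, at 5.34, lies below 1 scramble array, at 5.37.

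An interaction term then asked whether an effect changed between 24 h and 48 h, over the 35826 probes that both array versions carry and that exceeded the threshold at both times. Each time had its own array version, and time and version cannot be told apart. The term is made of the differences from scramble that were known when the pair was chosen. For FAS and ACTA2 its intervals and p-values are therefore a description and no independent test. At 48 h ACTA2 exceeded the threshold mainly on knockdown arrays. For ACTA2 the si-A1 effect was larger at 48 h by 1.20 (95% interval 0.25 to 2.14, adjusted p = 0.242 in limma) and the si-A2 effect by 1.72 (95% interval 0.73 to 2.72, adjusted p = 0.278). Both signs turned after normexp background correction, to -0.59 and -0.068. For the FAS probes the si-A1 effect moved by 0.07 to 0.29 and the si-A2 effect by -0.43 to -0.23, with adjusted p of 0.658 or more. No member passed the threshold, and 0.159% and 0.0335% of all probes did for si-A1 and si-A2. At an unadjusted p of 0.05 in limma, ACTA2 was below it for both siRNAs and no FAS probe was, beside 13.3% and 7.56% of all probes.

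Within a group, arrays that were high for 1 FAS probe were not always high for another. The deviations from the group means correlated at -0.39 to 0.73 among the 3 FAS probes at 24 h (n = 12 arrays) and at 0.58 to 0.76 at 48 h (n = 11). Between ACTA2 and the FAS probes the range was -0.62 to 0.73 at 24 h and 0.42 to 0.85 at 48 h. The points share slide and normalization, and at 48 h the scramble arrays of slide 2 were the lowest of their group for ACTA2 and for all 3 FAS probes.

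The genes whose levels went most alike with FAS over the same arrays were ranked among 17807 genes by the lower of the Pearson correlations at 24 h (12 arrays) and 48 h (11 arrays) with A_33_P3381127. ZMAT3, which encodes a zinc finger RNA-binding protein induced by p53, came first with a lower correlation of 0.85, and CCNG1, which encodes the p53-induced cyclin G1, was next with 0.82. BTBD10, DCAF4 and MAP4K4 followed with 0.81, 0.80 and 0.79. CDKN1A, the p53-induced inhibitor of cyclin-dependent kinases, ranked 9 with 0.77, and MDM2, which encodes the ubiquitin ligase of p53, ranked 6059. These correlations hold the group differences in them and are a description of 23 arrays.

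For ACTA2 the most alike were ITPK1, THG1L, ADA, EIF3D and LRSAM1, with lower correlations of 0.83, 0.81, 0.79, 0.79 and 0.79. ITPK1 encodes an inositol phosphate kinase, THG1L a tRNA-histidine guanylyltransferase, ADA adenosine deaminase and EIF3D a subunit of a translation initiation factor. ACTA2 ranked 838 for FAS, with correlations of 0.38 at 24 h and 0.94 at 48 h, and FAS ranked 730 for ACTA2. CDKN1A was not among the alike, with correlations with ACTA2 of 0.21 at 24 h and 0.82 at 48 h. The order of the knockdowns in ZMAT3 and CCNG1 at 24 h was that of FAS, with log2 differences from scramble of 0.56 and 0.29 after si-A1 and 1.37 and 0.81 after si-A2. Both genes were picked by their correlation with FAS over the same arrays, so a shared order is in part built into that choice.

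CDKN1A and MDM2 were followed as reference genes of the p53 response. CDKN1A averaged 10.84 ± 0.12 (SD, n = 4) in the scramble, 11.52 ± 0.11 (SD, n = 4) in the si-A1 and 12.64 ± 0.28 (SD, n = 4) in the si-A2 arrays at 24 h. It rose after si-A2 by 1.79 ± 0.15 (adjusted p = 0.000103 in limma) and was higher than after si-A1 by 1.12 ± 0.15 (adjusted p = 0.00581), a call that held with 1 of 12 arrays left out in turn and was otherwise lost (adjusted p up to 0.0341). After si-A1 its difference at 24 h was 0.68 ± 0.15 (adjusted p = 0.0426). At 48 h it rose after si-A1 by 2.10 ± 0.18 (adjusted p = 0.000148), and after si-A2 the difference was 1.21 ± 0.20 (adjusted p = 0.0179). On its brightest probe, A_33_P3361707, MDM2 differed from scramble by -0.10 to 0.29 and was not called in any comparison. MDM2 had 4 probes above the threshold at 24 h and 3 at 48 h, and the others are not reported here.

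The death receptor pathway was looked at through 24 genes, all with a probe and 23 of them above the threshold at each time point. FASLG, the ligand of FAS, was well above background on no array, at levels between 1.14 and 2.03 as group means, and was not tested. FADD, the adaptor, was at 10.74, 10.73 and 10.48 in the scramble, si-A1 and si-A2 arrays of 24 h and differed from scramble by at most 0.26 in size (-0.26 after si-A2, adjusted p = 0.385 in limma). CASP8, the initiator caspase, differed by 0.06 and 0.54 at 24 h and by 0.01 and 0.46 at 48 h, where it was dim, with adjusted p of 0.440 or more. CFLAR, which blocks CASP8 at the receptor, differed by 0.23 and 0.29 at 24 h and by -0.24 and -0.19 at 48 h, with adjusted p of 0.157 or more.

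Against scramble at 24 h none of the 23 tested genes of that list was called with limma, where 1.1% and 0.928% of all probes were called after si-A1 and si-A2. At an unadjusted p of 0.05, 5 were below after si-A1 (2 higher, 3 lower) and 7 after si-A2 (3 higher, 4 lower), as were 13.0% and 11.7% of all probes. The median log2 difference of the list was 0.00 and -0.10, beside 0.03 and 0.03 over all genes. TNFRSF10A and TNFRSF10B are the TRAIL receptors that carry a death domain as FAS does. TNFRSF10A differed by 0.57 ± 0.12 after si-A1, with an adjusted p of 0.0348 in limma, and by 0.66 ± 0.12 in the si-A2 arrays, with an adjusted p of 0.0185. TNFRSF10B differed by -0.65 ± 0.18 (adjusted p = 0.128) and -0.10 ± 0.18 (adjusted p = 0.875).

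Between the knockdowns at 24 h, 1 of the 23 was called. TNFRSF1A, the main receptor of tumour necrosis factor, averaged 5.83 ± 0.09 (SD, n = 4) in the scramble, 5.02 ± 0.25 (SD, n = 4) in the si-A1 and 6.09 ± 0.19 (SD, n = 4) in the si-A2 arrays, and its si-A2 level exceeded the si-A1 level by 1.07 ± 0.16 (adjusted p = 0.00975 in limma). That call held with 1 of 12 arrays left out and was lost with the other 11 (adjusted p up to 0.0480), as it was with the replicate number as a block in place of the slide (adjusted p = 0.0402).

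At 48 h, 3 receptors of the list rose after si-A1 and FAF1 fell, with 6.11% of all probes called in either direction. TNFRSF10A rose by 0.71 ± 0.08 (adjusted p = 0.000671 in limma). TNFRSF10D, a TRAIL receptor without a working death domain, rose by 1.06 ± 0.19 (adjusted p = 0.00707), from 5.31 ± 0.42 (SD, n = 4) to 6.37 ± 0.17 (SD, n = 4). TNFRSF21, also known as death receptor 6, rose by 0.90 ± 0.15 (adjusted p = 0.00457). FAF1, which encodes a FAS-associated factor, fell by 0.69 after si-A1 (-0.69 ± 0.08, adjusted p = 0.000882). It also fell by 0.73 in the si-A2 arrays (-0.73 ± 0.09, adjusted p = 0.00715), where it was the only call of the list and 0.445% of all probes were called.

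Of these calls at 48 h, those of TNFRSF10A and of FAF1 after si-A1 held with each of the 11 arrays left out. TNFRSF10D was lost with 8 of 11 left out (adjusted p up to 0.0258), TNFRSF21 with 7 of 11 (up to 0.0165) and FAF1 after si-A2 with any of the 11 (0.0146 to 0.0325). The median of the list was -0.14 with si-A1 and -0.08 with si-A2, beside 0.02 and -0.01 over all genes. Between si-A1 and si-A2 at 48 h none of the 23 was called with limma, and 6 had an unadjusted p below 0.05, as 19.1% of all probes did.

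ACTA2 was next set beside 22 genes of actins, smooth muscle contraction and their regulators. All 22 were above the threshold at 24 h and 21 at 48 h, and none was called with limma in any of the 6 comparisons. Of all probes, 0.366% to 6.11% were called, depending on the comparison. After si-A1 at 24 h, 20 of 22 were higher than scramble with a median of 0.39, beside 0.03 over all genes, and 7 had an unadjusted p below 0.05, all of them higher, as 13.0% of all probes did in either direction and 5.81% upward. After si-A2 at 24 h, 16 of 22 were higher with a median of 0.15, and 2 had an unadjusted p below 0.05, as 11.7% of all probes did. Between the knockdowns at 24 h 10 had one, 9 of them lower after si-A2, where 11.4% of all probes had one and 5.46% in that direction. The median was then -0.19, beside -0.01 over all genes.

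ACTG2, the gamma-actin of smooth muscle, averaged 6.58 ± 0.25 (SD, n = 4) in the scramble, 7.45 ± 0.23 (SD, n = 4) in the si-A1 and 6.78 ± 0.28 (SD, n = 4) in the si-A2 arrays at 24 h. Its si-A1 arrays lay above the scramble arrays without overlap, as did 3.92% of all probes. The difference of 0.87 ± 0.15 had an adjusted p of 0.0112 in limma. The si-A2 arrays lay below the si-A1 arrays on average (-0.67 ± 0.15, adjusted p = 0.0596). At 48 h it differed from scramble by 0.09 (si-A1) and -0.08 (si-A2).

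The cytoplasmic actins were well above background throughout. ACTB differed from scramble by 0.47 ± 0.19 with si-A1 (adjusted p = 0.310 in limma) and 0.28 ± 0.19 with si-A2 at 24 h, and ACTG1 by 0.24 ± 0.13 and 0.05 ± 0.13. TAGLN, the actin-binding transgelin of smooth muscle, differed by 0.21 ± 0.16 and 0.23 ± 0.16. The striated muscle actins were dim: ACTA1 was well above background on 1 of 12 arrays at 24 h and ACTC1 on 1 of 12, so their differences, 0.82 and -0.01 after si-A1, rest on values near background.

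At 48 h the contractile list had a median of 0.09 with si-A1 and -0.04 with si-A2, beside 0.02 and -0.01 over all genes. At an unadjusted p of 0.05 in limma there were 6 of 21 after si-A1 (3 higher, 3 lower), 7 of 21 after si-A2 (3 higher, 4 lower) and 1 of 21 between the knockdowns, beside 28.8%, 17.7% and 19.1% of all probes. ACTB differed by -0.21 and -0.19, ACTG1 by -0.09 and -0.05 and TAGLN by -0.01 and 0.04, with adjusted p of 0.551 or more.

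Markers of cells that use ACTA2 were measured beside it. Of 10 fibroblast and myofibroblast markers, 5 were above the threshold at 24 h and 4 at 48 h, and none was called in any comparison. The share of all probes called was 0.366% to 6.11%, depending on the comparison. COL1A2, LUM, PDGFRA and FAP were well above background on no array. DCN, which encodes the matrix proteoglycan decorin, was well above background on 2 of 12 arrays at 24 h and on 11 of 11 at 48 h, where its mean was 3.77 after scramble, 4.27 after si-A1 and 4.52 after si-A2. It differed from scramble by 0.50 ± 0.16 (adjusted p = 0.0703 in limma) and 0.74 ± 0.18 (adjusted p = 0.0634) at that time, in the direction of ACTA2, and its part in the ACTA2 level was not tested. PDGFRB, also well above background on 11 of 11 arrays at 48 h, averaged 4.69 after scramble, 4.55 after si-A1 and 4.66 after si-A2. In the linear model, 3 of the 4 fibroblast markers above the threshold at 48 h were higher than scramble after each siRNA. The summed normalized intensity of the 10 ranged from 71.8 to 92.1 in the scramble, 72.1 to 77.5 in the si-A1 and 59.7 to 82.2 in the si-A2 arrays at 24 h. At 48 h the ranges were 54.6 to 76.9, 64.5 to 74.8 and 69.4 to 94.4. The 5 smooth muscle markers were above the threshold at both times and none was called, beside the same shares of all probes. MYH11, the smooth muscle myosin, was well above background on 2 arrays at 24 h and on none at 48 h. CNN1 was well above background on 0 of 12 arrays at 24 h and LMOD1 on 1 of 12. At 24 h all 5 were higher than scramble after both siRNAs, as ACTA2 was, with medians of 0.40 and 0.24, beside 0.03 over all genes. Both medians are the values of CNN1, which was near background, and LMOD1 differed by 0.004 after si-A1. Of the 5, 1 (ACTG2 after si-A1) had an unadjusted p below 0.05 in limma. At 48 h 3 and 2 of 5 were higher. The summed intensity of the 5, mostly that of DES, overlapped between all groups at both times.

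Of the 10 luminal markers, 2 were called after si-A1 at 48 h, both lower, where 6.11% of all probes were called. The other 8 were not called, 2 of them higher and 6 lower, and the median of the list was -0.22. KLK2, an androgen-regulated kallikrein and 1 of those called, fell by 1.07 (-1.07 ± 0.13, adjusted p = 0.000972 in limma). The summed intensity of all 10 luminal markers lay between 34270 and 52005 after scramble, between 28897 and 34527 after si-A1 and between 33731 and 40080 after si-A2 at that time. Their part in the levels of FAS and ACTA2 was not tested. Since RNA was pooled from all cells of a culture, more expressing cells and more RNA per cell cannot be told apart.

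Whether the neighbourhood went along with FAS and ACTA2 was examined over all RefSeq genes that overlap the span of 1 Mb to either side of the pair (chr10:87935074-90017059). Of 55 such genes, 22 had a named probe at 24 h and 25 at 48 h, and 18 were above the threshold at each time. LIPA and KIF20B were the only ones of them called, judged by the brightest probe of each gene. After si-A1, 2 of the 18 were called at each time, both lower. Of all probes, 1.1% and 0.928% were called against scramble at 24 h after si-A1 and si-A2, and 6.11% and 0.445% at 48 h. Between the knockdowns 0.366% were called at 24 h and 1.45% at 48 h. The median log2 difference of the neighbours from scramble was 0.04 after both siRNAs at 24 h, and 0.05 and -0.01 at 48 h, beside 0.03, 0.03, 0.02 and -0.01 over all genes.

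The measured genes that overlap the pair or lie next to it were not called on their brightest probes. STAMBPL1, which encodes a deubiquitinase and lies next to ACTA2, was dim, at 3.44 ± 0.42 (SD, n = 4) in the scramble, 4.12 ± 0.28 (SD, n = 4) in the si-A1 and 4.09 ± 0.20 (SD, n = 4) in the si-A2 arrays at 24 h, and was well above background on 3 of 12 arrays. Its differences of 0.69 ± 0.23 and 0.66 ± 0.23 had adjusted p of 0.205 and 0.248 in limma, and at 48 h they were 0.27 and -0.24. FAS-AS1, which lies at the start of FAS, differed from scramble by 0.37 ± 0.27 and 0.10 ± 0.27 at 24 h and by 0.16 ± 0.29 and -0.06 ± 0.31 at 48 h, with adjusted p of 0.577 or more.

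ACTA2-AS1, which overlaps the end of ACTA2 on the other strand, was measured at 48 h with 2 probes. The brighter, at 9.10 on average, differed from scramble by 0.33 ± 0.21 after si-A1 (adjusted p = 0.343 in limma), while the dimmer, at 4.58, rose by 0.64 ± 0.12 (adjusted p = 0.00753). After si-A2 they differed by 0.17 ± 0.23 and 0.48 ± 0.13 (adjusted p = 0.758 and 0.0940). PANK1, a pantothenate kinase that is also a known p53 target, was dim and differed by -1.34 ± 0.60 and -0.54 ± 0.60 at 24 h, with adjusted p of 0.373 and 0.780.

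**Figure D4:**
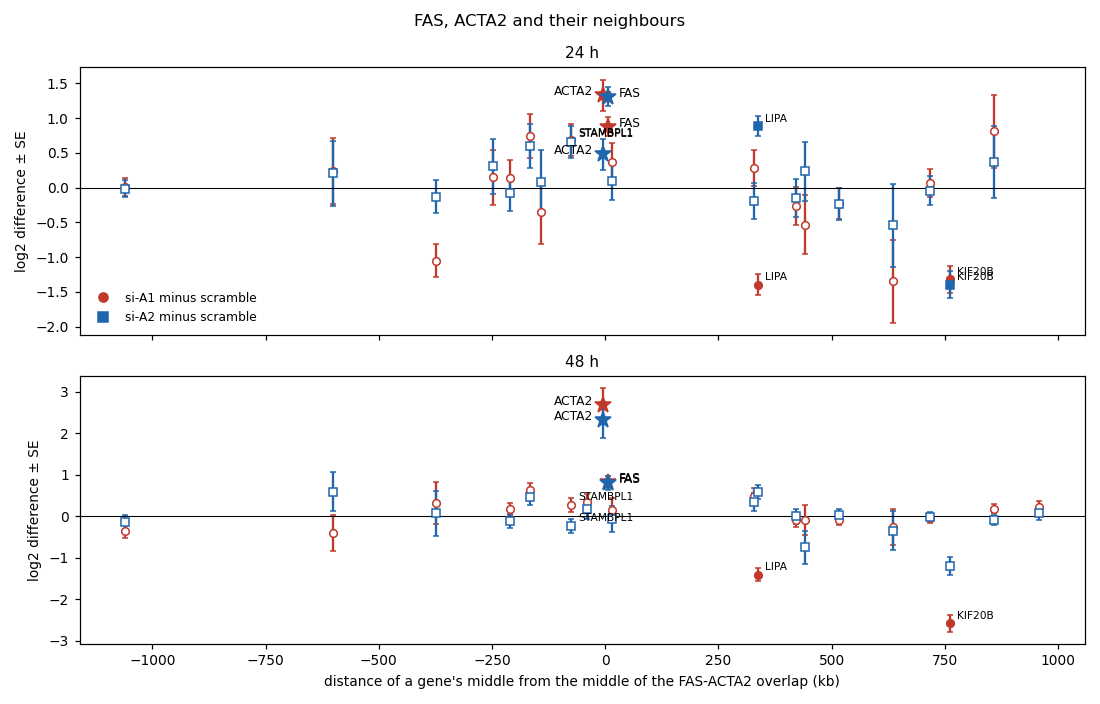
Log2 difference from scramble ± SE (vertical axis) of the neighbours above the threshold against their distance in kb from the middle of the FAS-ACTA2 overlap, for si-A1 (circles) and si-A2 (squares), filled where called. FAS and ACTA2 are the stars, drawn side by side at 0. LIPA lies at -1.39 after si-A1 and 0.88 after si-A2 at 24 h.

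LIPA, which encodes lysosomal acid lipase and lies beyond FAS at chr10:89213572-89414679, went in opposite directions after the siRNAs. At 24 h its level lay between 5.57 and 5.92 after scramble, between 4.06 and 4.57 after si-A1 and between 6.32 and 6.75 after si-A2, with no overlap between the 3 groups. It fell after si-A1 by 1.39 (-1.39 ± 0.14, adjusted p = 0.000483 in limma) and rose after si-A2 by 0.88 ± 0.14 (adjusted p = 0.00954), and the difference between the knockdowns was 2.28 ± 0.14 (adjusted p = 0.000154). The call after si-A2 was lost with any of the 12 arrays left out (adjusted p between 0.0115 and 0.0393), while the other calls at 24 h held with each left out.

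At 48 h LIPA lay between 4.55 and 5.72 after scramble, between 3.06 and 4.06 after si-A1 and between 5.27 and 6.19 after si-A2. It fell by 1.41 after si-A1 (-1.41 ± 0.16, adjusted p = 0.000638 in limma), and the si-A2 level exceeded the si-A1 level by 2.00 ± 0.17 (adjusted p = 0.00103). Without si-A2 replicate 1 the last value had an adjusted p of 0.0109. FAS, in contrast, averaged above scramble with both siRNAs at both times.

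KIF20B, which encodes a mitotic kinesin, lies at chr10:89701590-89774934 and was lower after both siRNAs. At 24 h it fell from 7.20 ± 0.31 (SD, n = 4) by 1.32 after si-A1 (-1.32 ± 0.20, adjusted p = 0.00484 in limma), and in the si-A2 arrays it fell by 1.39 (-1.39 ± 0.20, adjusted p = 0.00347). Its dimmer probe, A_23_P75071, differed by -1.81 ± 0.44 after si-A1 at 24 h, without a call (adjusted p = 0.0795). At 48 h it fell by 2.58 after si-A1 (-2.58 ± 0.20, adjusted p = 8.87e-05), and after si-A2 the difference was -1.20 ± 0.22 (adjusted p = 0.0241). The calls at 24 h were lost with 8 and 4 of 12 arrays left out in turn (adjusted p up to 0.0215 and 0.0180), and the call at 48 h held with each of 11. The difference between the knockdowns at 48 h, 1.38 ± 0.22 (adjusted p = 0.00902), was lost with 10 of 11 left out (adjusted p up to 0.0691).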

How the data were processed

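The 24 arrays hold 4 samples of LNCaP RNA per siRNA and time point, and 23 were used. From the scans the authors extracted, with Feature Extraction 11.5.1.1, and deposited for each spot a processed intensity after background subtraction and the median signal and background. They also deposited log2 values, which are quantile-normalized, used here as an alternative. Per the labels the submitters used R 3.4.3 and limma 3.34.8.

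The log2 processed intensities of a time point were quantile-normalized over all spots, flagged spots and control spots were set aside, and repeated spots of a probe were averaged. Names came from RefSeq accessions (GRCh38.p14) for 57.4% of the 24 h and 53.4% of the 48 h probes. The threshold for keeping a probe was the mean plus 3 SDs of 308 negative control spots, exceeded on at least 3 arrays. The interquartile filter of 0.5 in the study's methods was used as an alternative, so that every member could be fitted. Where the files differ in version between time points, each time point was normalized by itself. Linear models used limma 3.58.1 in R 4.3.3, with the slide as a term and all 3 siRNAs in 1 fit, and for the interaction over 23 arrays normalized together. Adjusted p-values (Benjamini-Hochberg) cover all probes kept, and a call needed an adjusted p below 0.01 and a log2 difference of at least 0.5. The model was tested on simulated data. Replicates are biological per the methods. The number of arrays limits the precision, and the level of a probe near background is uncertain.

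A gene of a list was represented by its brightest probe. The genes named are all FAS and ACTA2 probes, called neighbours and list members, genes of fixed names whether called or not, CDKN1A and MDM2, and the 5 genes most alike per member. The members and lists were chosen with earlier results of these data known. One called luminal marker is not reported here. Each fit was repeated after scaling to the 75th percentile, after normexp on the median signal with an offset of 50, on the authors' log2 values, without the slide, with it as a random block (statmod 1.5.0), with a block for the replicate number, on the compared groups alone, with other filters, with the dim array and without each array.

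Replicate numbers showed no clear pairing of the samples. At 24 h, 3 of 12 same-number pairs of arrays had correlated deviations above 0.1, and 5 of 12 pairs with different numbers on the same slide. At 48 h all 10 did (0.179 to 0.354), as did 9 of 10 pairs with different numbers on the same slide. None of the same-number pairs did once slide means were removed, but that removal itself lowers correlations within a slide and so decides nothing.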

Additional observations from a re-analysis of the deposited data

Results flagged for a closer look

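Of 20 groups of 4 arrays examined for the 4 probes, 1 held an array far from the others, as about 1 in 20 does by chance. On the FAS probe A_33_P3381127 the si-A1 array of replicate 1 at 48 h was at 5.34, against 5.79 for the nearest of the other 3, a gap of 0.888 of the group's range. On A_23_P63896 and A_33_P3332112 the same array was also the lowest of its group, at 5.91 and 5.10. Without it, the si-A1 difference of A_23_P63896 from scramble at 48 h was 0.93 in place of 0.82.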

How the results depend on the processing

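ACTA2 and the brightest FAS probe of each time, the probes run through all settings, kept the sign of their difference from scramble under each, and no comparison of the knockdowns or of the time points passed the threshold under any of them. Normexp background correction gave differences from scramble of 0.42 and 0.76 for FAS at 24 h and 0.36 and 0.36 at 48 h (si-A1 and si-A2), of 0.45 and 0.32 for ACTA2 at 48 h, and turned the change of the ACTA2 effect from 24 h to 48 h to -0.59 and -0.068. Within slides, ACTA2 at 48 h differed by 1.69 and 3.68 (si-A1) and 1.46 and 3.03 (si-A2), and FAS after si-A1 by 0.53 and 1.11. Other FAS probes gave 0.69 and 1.1 at 24 h (A_23_P63896), 1.16 for si-A1 (A_33_P3332112) and 1.08 for si-A2 (A_33_P3381127) at 48 h, and 0.12 in place of -0.02 between the knockdowns at 48 h. The cause of these shifts was not tested, apart from the dim scramble values of ACTA2 given above.

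Without single arrays, the FAS difference between the knockdowns ranged from 0.38 to 0.50 at 24 h and from -0.13 to 0.09 at 48 h, and that of ACTA2 from -0.98 to -0.75 and from -0.53 to -0.10. With the dim array kept the last was -0.86 in place of -0.37 (adjusted p = 0.594 in limma), and with normexp -0.13. At 48 h the FAS sign turned without si-A1 replicate 3 or 4 or si-A2 replicate 3 (0.050, 0.030 and 0.093), as it did within slide 1 (0.15). Over the other settings the adjusted p for FAS at 24 h ranged from 0.0293 to 0.455 and that for ACTA2 from 0.0759 to 0.178.

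With the replicate block in place of the slide, the difference between the knockdowns at 24 h was -0.85 for ACTA2 (adjusted p = 0.149 in limma) and 0.43 for FAS (adjusted p = 0.290), and no call of a member changed. The number of death receptor genes called in any comparison was 5, and 3 with the replicate block or the interquartile filter. Under these settings and with scaling to the 75th percentile, the count was 2 for the neighbours and 0 for the contractile genes. With normexp the differences of LIPA from scramble (-0.48 and 0.42 at 24 h, -0.38 at 48 h) and of TNFRSF10A (0.46 at 48 h) were under 0.5 in size, and the call of CDKN1A between the knockdowns was lost with the replicate block (adjusted p = 0.0218). With the dim array kept, the calls of LIPA, CDKN1A and the death receptor genes at 48 h were lost, and of the KIF20B calls that after si-A1 remained (adjusted p = 0.00530). Signal over background limits ACTA2 at 48 h, STAMBPL1, PANK1, CASP8 at 48 h, the striated actins, MYH11, and CNN1 and LMOD1 at 24 h.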
